A study of Mus musculus with 2 samples.

Results

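The genes of the replication-dependent histone clusters are the 70 rows of the expression table, of 51826 rows in all, whose symbol begins with Hist1h, Hist2h, Hist3h or Hist4h. They were grouped by histone type from the symbol into 6 H1, 20 H2A, 19 H2B, 12 H3 and 13 H4 genes. RNA had been taken from v6.5 mouse embryonic stem (ES) cells, which are pluripotent cells of the early embryo kept in culture, in 1 library carrying the T29I mutation and in 1 WT library. The strain label of both libraries reads NBA1-19349, and the series title names the mutated gene as PRSS1. The labels do not say how the mutation was introduced or whether the T29I cells were 1 clone. The WT library is of the same v6.5 source without the mutation. Both libraries were made from total RNA after removal of ribosomal RNA, with a kit that keeps the strand of each transcript. Levels are given in TPM (transcripts-per-million), which count the reads of each gene per unit of its length and are then set to the same sum in every library.

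Histones are the proteins around which DNA is wound. A nucleosome core holds H2A, H2B, H3 and H4, and H1 binds the linker DNA between cores. The clustered genes are switched on in S phase, when new DNA must be packaged, and their mRNAs normally lack introns and a poly(A) tail. In place of the tail they end shortly after a conserved stem-loop, which is bound by the protein Slbp and cut with the help of the U7 ribonucleoprotein. The many gene copies of a type encode the same or nearly the same protein, so a cell can draw the same histone from different copies.

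With 1 library per group no difference has a replicate check, and "higher" and "lower" describe these 2 libraries. The mutation cannot be told apart from differences between clones, cultures or library preparations. The libraries held an estimated 15281662 reads in T29I and 16910002 in WT, and the median log2 ratio of T29I over WT was -0.90 over the 9375 genes whose mean reached 5 TPM. Log2 ratios and counts given below as relative to the median of all genes are relative to this value. Prss1 was listed at 0 TPM in both libraries and is no check of the labels. All 10 markers of ES cells were measured, with a summed level of 7652 TPM in T29I and 11286 TPM in WT. Of these, 6 were at least 2-fold lower in T29I, among them Zfp42 (23.3 TPM in T29I and 544 TPM in WT) and Nanog (140.3 TPM in T29I and 765 TPM in WT). Utf1 was at least 2-fold higher (2459 TPM in T29I and 972 TPM in WT). Over all measured genes, those with a mean of at least 1 TPM, 45.7% were at least 2-fold lower in T29I and 9.97% higher. Relative to the median of all genes, 3 ES markers were at least 2-fold lower and 1 higher, against 22.2% and 26% of all measured genes. The 8 fibroblast markers, of which 4 were measured, summed to 171 TPM in T29I and 181 TPM in WT, most of it Vim. Of these 4, Thy1 (17.6 TPM in T29I and 4.57 TPM in WT) and Acta2 (12.1 TPM in T29I and 1.51 TPM in WT) were at least 2-fold higher in T29I, and the defining collagen gene Col1a1 was at 1.38 TPM in T29I and 0.939 TPM in WT. The 8 trophoblast markers, of which 5 were measured, summed to 879 TPM in T29I, most of it Krt8 and Krt18, and 125 TPM in WT. At least 2-fold higher in T29I were 3, Krt8 (389 TPM in T29I and 28.6 TPM in WT), Krt18 (353 TPM in T29I and 15.4 TPM in WT) and Hand1 (79.5 TPM in T29I and 0.868 TPM in WT). Eomes was at least 2-fold lower (2.19 TPM in T29I and 6.21 TPM in WT). The defining gene Cdx2 was at 0.402 TPM in T29I and 0.256 TPM in WT. The 7 erythroid markers, of which 4 were measured, summed to 1258 TPM in T29I, of which Hbb-bs gave 1245 TPM, and to 2.92 TPM in WT, where Hbb-bs was listed at 0. The part of these marker differences in the histone values was not tested.

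The stem-loop is the feature that sets these mRNAs apart, and it is shown here for members whose levels are described below. A pattern of its 16 bases with 5 of them left free, searched on the transcript strand of the GENCODE M21 transcripts, was found in 42 of the 68 members that could be searched, against 89 of 55450 genes in all (0.161%). No match says only that the annotated transcript does not hold these letters. The stem-loop is in capitals, with up to 5 transcript bases on each side, 5′ to 3′.
Hist1h3c: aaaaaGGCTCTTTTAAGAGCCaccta
Hist1h2bj: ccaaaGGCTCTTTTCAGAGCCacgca
Hist1h2ag: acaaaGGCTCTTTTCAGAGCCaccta
Hist1h4b: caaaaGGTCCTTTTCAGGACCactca
Hist1h4d: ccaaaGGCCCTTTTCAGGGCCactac
Hist1h1c: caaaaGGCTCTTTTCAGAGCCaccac
The commonest form, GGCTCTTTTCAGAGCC, was annotated in 24 members of types H1, H2A, H2B and H3 and in 0 H4 genes. The form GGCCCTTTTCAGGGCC was annotated in 7 members, all of them H4 genes. Members with the first form had a summed level of 198 TPM in T29I and 34.4 TPM in WT. Members with the second form summed to 69.4 TPM in T29I and 9.61 TPM in WT. Both sums were thus higher in T29I.

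Cluster histone mRNAs were more abundant in the T29I library for every histone type. The 70 genes summed to 709 TPM in T29I and 148 TPM in WT, a 4.79-fold difference with a 95% counting interval of 4.398 to 5.21. The interval rests on an estimated 3051 reads in T29I and 660 reads in WT, and like all counting intervals here it covers counting error only. In bulk RNA, more cells making a transcript and more of it per cell cannot be told apart. Of the 70 genes, 55 had a higher TPM in T29I, 9 a higher TPM in WT and 6 were listed at 0 in both. Over all genes above 0 in either library, 29.5% had a higher TPM in T29I.

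**Figure D1:**
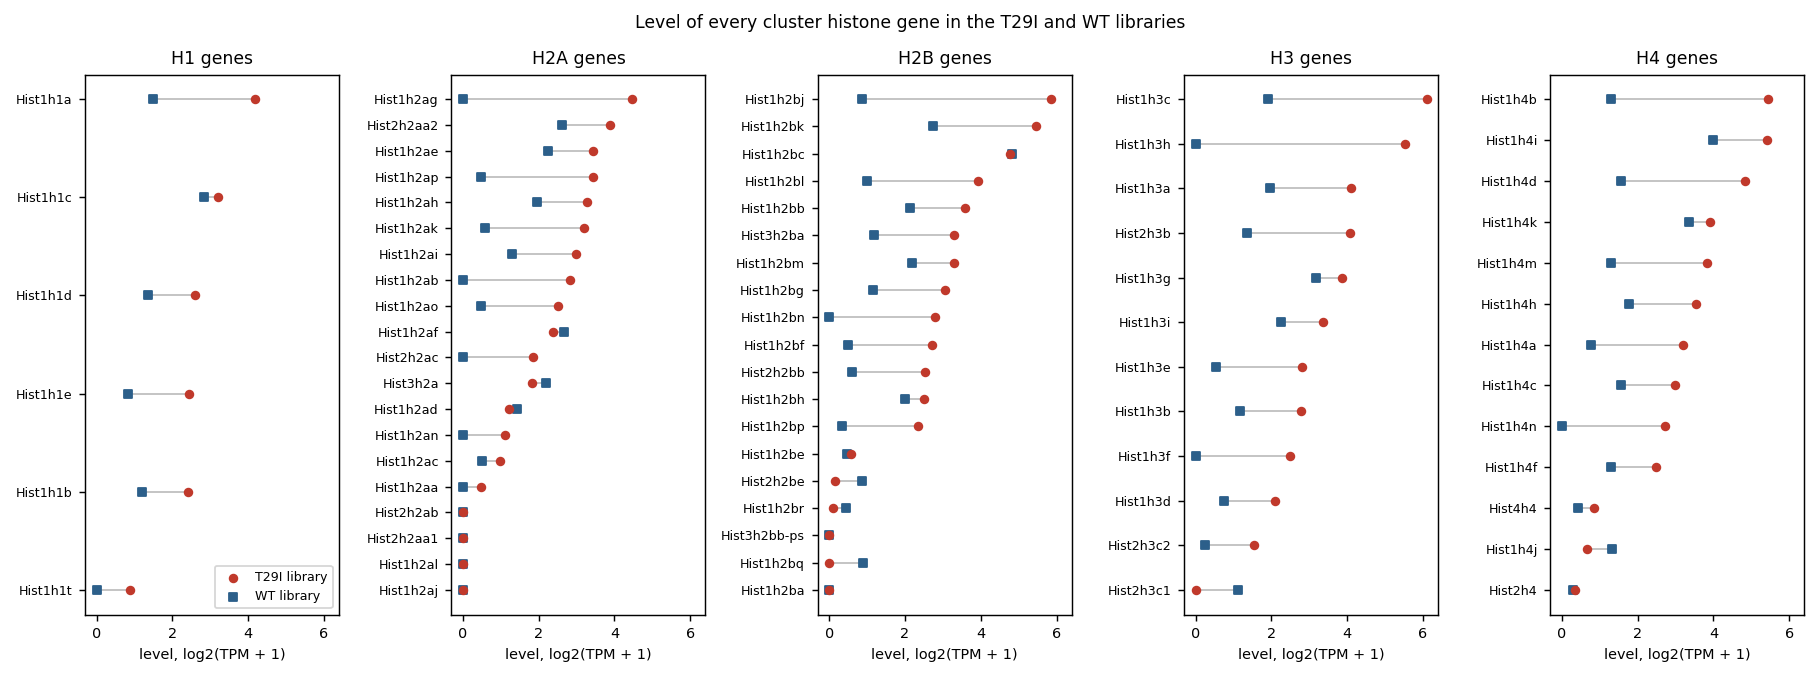
Level of each of the 70 cluster histone genes on the log2(TPM + 1) scale, 1 panel per histone type, with red circles for the T29I library and blue squares for the WT library. In 55 genes the red circle lies to the right, and Hist1h2bc, the most abundant member in WT at 27.2 TPM, is nearly equal in both.

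Of the 70 genes, 53 had a mean of at least 1 TPM and are called measured. Among these, 44 were at least 2-fold higher in T29I on the log2(TPM + 1) scale, against 9.97% of all 12943 measured genes, and 0 were at least 2-fold lower, against 45.7%. Their median log2 ratio was 1.86, beside -0.84 for all measured genes. In 19 of the 53 the WT level was under 1 TPM, so that these entered through the T29I library, and the count over the measured genes favours that direction. The median was 1.62 when genes listed at 0 were set to the level of 3 reads. On a scale adjusted for transcript length and GC content, 22 of 51 measured members lay above the 2-fold size in T29I and 7 below it, and their median was 0.79. The background on that adjusted scale was 17.6% of all measured genes above and 15.5% below. Other protein-coding genes under 700 bases with a GC content of at least 55% had an adjusted median of -0.67. The 7 members below were not 2-fold lower as deposited. Of these, Hist1h2ai was at 6.93 TPM in T29I and 1.47 TPM in WT, with an adjusted log2 ratio of -1.79. Hist1h2af was at 4.17 TPM in T29I and 5.31 TPM in WT, with an adjusted log2 ratio of -3.40.

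Counting error was set beside each ratio. The exact 95% interval of the T29I over WT ratio lay above 1 for 42 members, against 15.8% of the 20543 genes with an estimated read in either library, and below 1 for 3 members, against 47.6%. It spanned 1 for 17 genes, and 8 genes had no interval, of which 6 were listed at 0 in both libraries and 2 could not be matched to the annotation by gene ID. The members nearest the 2-fold size were Hist1h2bm, just inside it at 8.74 TPM in T29I and 3.54 TPM in WT, and Hist1h3g, just outside it at 13.5 TPM in T29I and 8.12 TPM in WT.

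The H3 genes had the largest ratio of summed levels as deposited. H3 carries the tail positions whose methylation and acetylation mark active and silent chromatin. The 12 H3 genes summed to 189 TPM in T29I and 22.8 TPM in WT, an 8.26-fold difference with a counting interval of 6.50 to 10.6. Of 11 measured H3 genes, 10 were at least 2-fold higher in T29I, and the median log2 ratio was 2.14. After the length and GC adjustment the H3 median was 0.63, below the 1.96 of H1, the 1.25 of H2B and the 1.23 of H4, so its place as the highest type did not hold on that scale. The counting interval of the H3 sum did not overlap those of the other 4 types.

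Hist1h3c, on the minus strand of chromosome 13 from 23744973 to 23745602 in GRCm38, was the most abundant member of all in T29I. It stood at 67.5 TPM in T29I (counting interval 59.9 to 75.9) and 2.76 TPM in WT (1.26 to 5.22), a 24.5-fold difference with an interval of 12.7 to 54.2. The intervals of its levels were far apart, and the gene alone supplied 35.8% of the H3 sum in T29I. Hist1h3h, at 21717659 to 21718069 on the plus strand of the same chromosome, was at 44.9 TPM in T29I and listed at 0 in WT. Only 6.08% of its 50-base words are found in no other gene, so its reads cannot be told from those of other copies over most of its length. Hist1h3a was at 16.2 TPM in T29I and 2.89 TPM in WT, and Hist2h3b, of the chromosome 3 cluster, at 15.8 TPM in T29I and 1.58 TPM in WT. Hist1h3g, the most abundant H3 gene in WT, differed least, at 13.5 TPM in T29I and 8.12 TPM in WT, with a ratio interval of 0.99 to 2.93. The other measured H3 genes on chromosome 13 were Hist1h3b, Hist1h3d, Hist1h3e, Hist1h3f and Hist1h3i, at 3.24 to 9.21 TPM in T29I and 0 to 3.75 TPM in WT, each over 2-fold higher in T29I. The H3 gene that went the other way was Hist2h3c1, listed at 0 in T29I and at 1.16 TPM in WT.

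The H4 genes encode the partner with which H3 is deposited on new DNA. Their sum was 177 TPM in T29I and 37.6 TPM in WT, a 4.70-fold difference (3.87 to 5.74). Of 11 measured H4 genes, 9 were at least 2-fold higher in T29I and the median log2 ratio was 1.75. Hist1h4b was at 42.3 TPM in T29I and 1.46 TPM in WT, a 29.1-fold difference with a wide interval of 9.69 to 143, because it had only 3 reads in WT. Hist1h4d was at 27.7 TPM in T29I and 1.96 TPM in WT, a 14.1-fold difference (7.63 to 26.8). Hist1h4i, the most abundant H4 gene in WT, was at 41.9 TPM in T29I and 14.8 TPM in WT, a 2.82-fold difference (2.09 to 3.86). Hist1h4k, the second in WT, was at 14.1 TPM in T29I and 9.26 TPM in WT, and its ratio interval of 0.79 to 3.05 spanned 1. Hist1h4m was at 13.2 TPM in T29I and 1.44 TPM in WT, and Hist1h4h at 10.6 TPM in T29I and 2.44 TPM in WT. Hist1h4a, Hist1h4c and Hist1h4f stood at 4.65 to 8.14 TPM in T29I and 0.715 to 1.95 TPM in WT. Hist1h4j had the lowest log2 ratio of the measured members, at 0.587 TPM in T29I and 1.49 TPM in WT, which rests on 3 reads in T29I and 6 in WT, and its interval of 0.06 to 1.84 spanned 1.

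**Figure D2:**
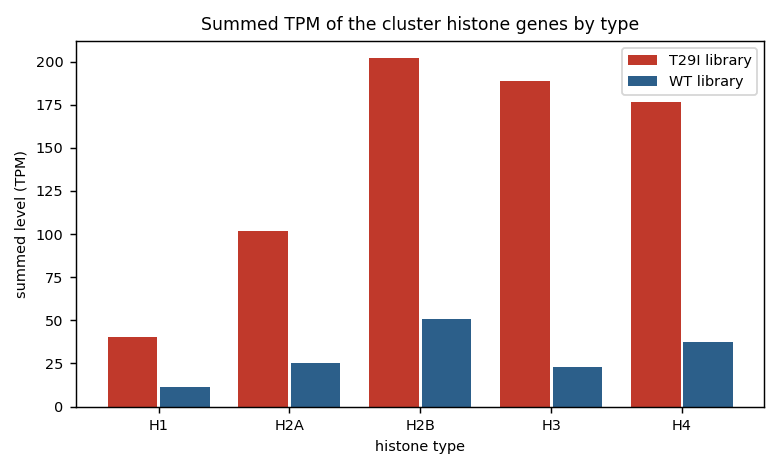
Summed TPM of all cluster histone genes of each type, with red bars for the T29I library and blue bars for the WT library and no error bars because each group is 1 library. H3 stands at 189 TPM in T29I against 22.8 TPM in WT, while H2B is the highest type in both libraries.

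The H2B genes, whose protein pairs with H2A in the nucleosome, held the highest sum of any type in both libraries. They summed to 202 TPM in T29I and 50.7 TPM in WT, a 3.98-fold difference (3.43 to 4.63). Of 13 measured genes, 11 were at least 2-fold higher in T29I, with a median log2 ratio of 1.99. Hist1h2bj, at 22043214 to 22043676 on the plus strand of chromosome 13, was at 56.6 TPM in T29I and 0.832 TPM in WT. Its ratio of 68.0 had a counting interval of 18.5 to 566, because only 2 reads were estimated in WT. Hist1h2bk was at 42.9 TPM in T29I (36.0 to 50.8) and 5.67 TPM in WT (3.10 to 9.51), a 7.58-fold difference. Hist1h2bl was at 14.3 TPM in T29I and 1.01 TPM in WT, and Hist1h2bb at 11.1 TPM in T29I and 3.41 TPM in WT. Hist1h2bf, Hist1h2bg and Hist1h2bp stood at 4.07 to 7.30 TPM in T29I and 0.273 to 1.21 TPM in WT, with ratio intervals that all lay above 1. Hist1h2bh was at 4.68 TPM in T29I and 2.98 TPM in WT, under 2-fold apart.

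Hist1h2bc, the most abundant member in WT, was nearly level. It was at 26.5 TPM in T29I (23.1 to 30.5) and 27.2 TPM in WT (23.2 to 31.7), and the ratio of 0.97 had an interval of 0.79 to 1.21. It held 18.4% of all cluster histone TPM in WT and ranked at place 8 in T29I. Of the 5 most abundant members in WT, 4 had a ratio interval that spanned 1, namely Hist1h2bc, Hist1h4k, Hist1h3g and Hist1h1c, and Hist1h4i did not. Choosing members by their WT level, the denominator of the ratio, favours lower ratios, and choosing by T29I level favours higher ones. The same holds wherever a member is named as the most abundant in 1 library. The annotated exons of Hist1h2bc total 1156 bases spread over 23684199 to 23692908 on chromosome 13, whereas 60 of the 65 members with a coding sequence have 1 exon. Relative to the median of all genes, Hist1h2bc had a log2 ratio of 0.86. Without this gene, a choice made after seeing the data, the members summed to 683 TPM in T29I and 121 TPM in WT, a 5.64-fold difference. Outside the measured genes, Hist2h2be was at 0.116 TPM in T29I and 0.809 TPM in WT, a 6.999-fold lower level in T29I with an interval of 1.53 to 65.0, from 2 reads in T29I and 11 in WT.

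The H2A genes summed to 102 TPM in T29I and 25.5 TPM in WT, a difference with a counting interval of 3.20-fold to 5.04-fold. Of 13 measured genes, 10 were at least 2-fold higher in T29I. The median log2 ratio was 1.68 as deposited but -0.16 after the length and GC adjustment, so the direction of the H2A median did not hold on that scale. There, other protein-coding genes under 700 bases with a GC content of at least 55% had a median of -0.67. Hist1h2ag, at 22042460 to 22042944 on the minus strand of chromosome 13, was at 20.9 TPM in T29I and listed at 0 in WT. Hist2h2aa2 was at 13.8 TPM in T29I and 5.11 TPM in WT, and Hist1h2ae at 9.87 TPM in T29I and 3.77 TPM in WT. Hist1h2ap was at 9.74 TPM in T29I and 0.3997 TPM in WT, from 1 read in WT, with a ratio interval of 4.06 to 993. Hist1h2ah was at 8.60 TPM in T29I and 2.85 TPM in WT. Hist1h2ai, Hist1h2ak and Hist1h2ao stood at 4.73 to 8.09 TPM in T29I and 0.401 to 1.47 TPM in WT, from 1 to 3 reads in WT, and their ratio intervals all lay above 1. Hist1h2af, the most abundant H2A gene in WT, was at 4.17 TPM in T29I and 5.31 TPM in WT with 11 reads in each library, and its interval of 0.31 to 2.00 spanned 1. Hist3h2a had the lowest log2 ratio of the H2A genes, at 2.54 TPM in T29I and 3.59 TPM in WT, with an interval of 0.44 to 1.14.

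The H1 genes encode the linker histones, which help to compact chromatin. They made up 5.65% of the cluster histone TPM in T29I and 7.82% in WT, and summed to 40.1 TPM in T29I and 11.6 TPM in WT, a 3.46-fold difference (2.85 to 4.23). Of 5 measured H1 genes, 4 were at least 2-fold higher in T29I. Hist1h1a was at 17.2 TPM in T29I (13.7 to 21.2) and 1.80 TPM in WT (0.73 to 3.75), a 9.56-fold difference. Hist1h1c, the most abundant H1 gene in WT, was at 8.25 TPM in T29I and 6.17 TPM in WT, with a ratio interval of 0.93 to 1.93. The order of the H1 genes therefore differed, with Hist1h1a first in T29I and Hist1h1c first in WT. Hist1h1d was at 5.09 TPM in T29I and 1.55 TPM in WT, Hist1h1e at 4.45 TPM in T29I and 0.773 TPM in WT, and Hist1h1b at 4.28 TPM in T29I and 1.30 TPM in WT.

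The make-up of the cluster histone RNA differed by type as well as in total. H3 held 26.6% of it in T29I and 15.4% in WT. H2B held 28.5% in T29I and 34.2% in WT, and H2A 14.4% in T29I and 17.2% in WT. H4 was nearly level, at 24.9% in T29I and 25.4% in WT. The 5 most abundant genes held 35.8% of the total in T29I and 44.3% in WT, and 50% of the total came from 9 genes in T29I and 7 genes in WT. Across the 70 genes Spearman's rho between the libraries was 0.56, a description over genes that share libraries and partly reads.

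The testis copies of the histone genes were under 1 TPM in both libraries. Hist1h1t, the testis linker histone, was at 0.831 TPM in T29I, from 5 reads, and listed at 0 in WT. Hist1h2aa and Hist1h2ba, which encode the testis forms of H2A and H2B, were at 0.388 TPM from 1 read and at 0 in T29I, and both were listed at 0 in WT. Further genes listed at 0 in both libraries were Hist1h2aj, Hist1h2al, Hist2h2aa1, Hist2h2ab and Hist3h2bb-ps, of which Hist1h2aj, Hist1h2al and Hist3h2bb-ps are annotated as pseudogenes. The genes listed at 0 in WT alone were 10, against 6.13% of all genes above 0 in either library, namely Hist1h1t, Hist1h2aa, Hist1h2ab, Hist1h2ag, Hist1h2an, Hist1h2bn, Hist1h3f, Hist1h3h, Hist1h4n and Hist2h2ac. Their levels in T29I were between 0.388 TPM for Hist1h2aa and 44.9 TPM for Hist1h3h. The genes listed at 0 in T29I alone were 2, against 14% of all such genes, namely Hist1h2bq, at 0.869 TPM in WT, and Hist2h3c1.

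The chromosome 13 members lie in stretches separated by gaps of over 100 kb, and all 3 of the larger stretches were higher in T29I. The 19 genes from 21715763 to 21837530 summed to 156 TPM in T29I and 26.04 TPM in WT, a 5.98-fold difference. The 5 genes from 22035164 to 22043676, namely Hist1h2ah, Hist1h2bk, Hist1h4i, Hist1h2ag and Hist1h2bj, summed to 171 TPM in T29I and 24.2 TPM in WT, a 7.06-fold difference, and all 5 were at least 2-fold higher in T29I. The 29 genes from 23531050 to 23764406, a stretch that includes Hist1h2bc, summed to 331 TPM in T29I and 83.2 TPM in WT, a 3.98-fold difference. The short middle stretch of 5 genes thus supplied 24.1% of all cluster histone TPM in T29I and 16.3% in WT. On chromosome 3 the 10 Hist2 genes summed to 39.3 TPM in T29I and 9.59 TPM in WT, and on chromosome 11 the 3 Hist3 genes summed to 11.4 TPM in T29I and 4.85 TPM in WT. Within the Hist3 cluster, Hist3h2ba was at 8.88 TPM in T29I and 1.25 TPM in WT, whereas Hist3h2a had the lower value in T29I as deposited, with a log2 ratio of -0.38, and 0.52 relative to the median of all genes. Hist4h4, alone on chromosome 6, was at 0.793 TPM in T29I and 0.336 TPM in WT. Of the Hist2 genes not yet given, Hist2h2bb was at 4.77 TPM in T29I and 0.506 TPM in WT and Hist2h3c2 at 1.93 TPM in T29I and 0.189 TPM in WT. Hist2h2ac was at 2.62 TPM in T29I and listed at 0 in WT, and Hist2h4 was at 0.279 TPM in T29I and 0.236 TPM in WT.

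Many cluster genes sit in head-to-head pairs whose start sites share a short stretch of DNA. By the annotation there were 15 such pairs within 1 kb, 14 of them of an H2A and an H2B gene, with 173 to 660 bases between the annotated starts. In 7 pairs both genes were higher in T29I, and in 5 pairs the partners went opposite ways as deposited. The pairs of Hist3h2bb-ps with Hist3h2a and of Hist1h2aj with Hist1h2bm each hold an annotated pseudogene listed at 0 in both libraries. The pair Hist1h2ag and Hist1h2bj, with 270 bases between its starts, held the highest log2 ratios of all paired genes. In 4 of the 5 opposite pairs the partner that was lower in T29I is one annotated with a transcript of at least 1000 bases, namely Hist1h2bc, Hist1h2bq, Hist1h2br and Hist2h2be. Hist1h2ac, the higher partner of Hist1h2bc, is annotated with a longer transcript still, of 2482 against 1156 bases. The ratio intervals of Hist1h2ac (0.88 to 8.78) and Hist1h2bc (0.79 to 1.21) both spanned 1, as did that of Hist1h2br (0.004 to 1.99). The opposite pairs Hist1h2bq with Hist1h2ao and Hist1h2br with Hist1h2ap have identical coding sequences, so they are not separate cases. In the fifth opposite pair the lower partner was Hist1h2ad, at 1.31 TPM in T29I and 1.66 TPM in WT with 5 reads in each library. Relative to the median of all genes, Hist1h2bc had a log2 ratio of 0.86 and Hist1h2ad of 0.69. Hist1h2bq, Hist1h2br and Hist2h2be were under 1 TPM in both libraries. There the added 1 TPM holds log2 ratios near 0, so a value relative to that median says little of them.

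**Figure D3:**
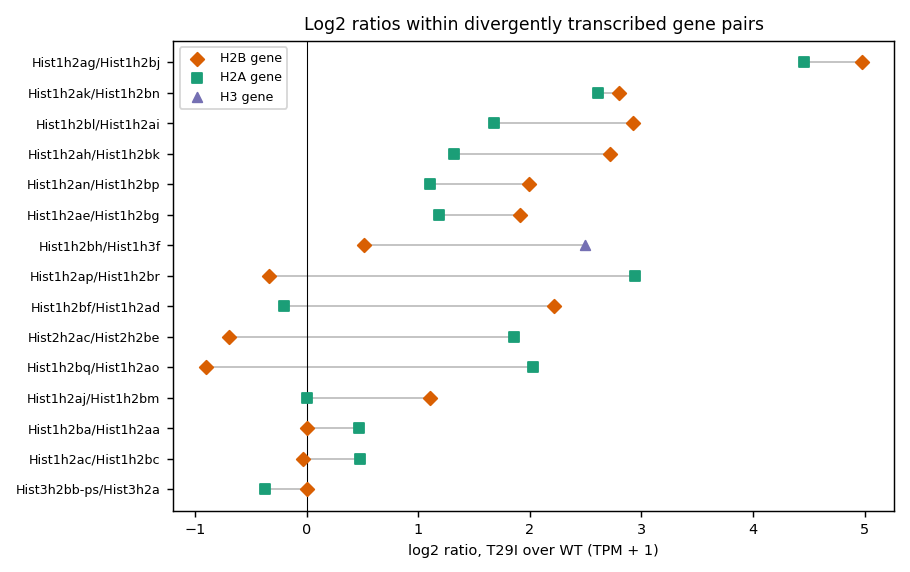
Log2 ratio of T29I over WT on the log2(TPM + 1) scale for both genes of the 15 divergently transcribed pairs, with orange diamonds for H2B, green squares for H2A and a purple triangle for the 1 H3 gene. In 7 pairs both partners lie right of 0, and in 5 pairs the partners fall on opposite sides.

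The DNA before the start sites is shown for the 3 most abundant members in T29I, from RefSeq on GRCm38.p6, whose start sites differ by some bases from those of GENCODE. RefSeq gave such a sequence for 62 of the 70 members. Each line holds the 250 bases before the annotated start, 5′ to 3′ on the strand of the gene, and capitals mark matches on either strand to the TATA box (TATAAA), the CCAAT box (CCAAT), the octamer (ATTTGCAT) and the H1 box (AAACACA).
Hist1h2bj, chr13:22042948-22043197, plus strand: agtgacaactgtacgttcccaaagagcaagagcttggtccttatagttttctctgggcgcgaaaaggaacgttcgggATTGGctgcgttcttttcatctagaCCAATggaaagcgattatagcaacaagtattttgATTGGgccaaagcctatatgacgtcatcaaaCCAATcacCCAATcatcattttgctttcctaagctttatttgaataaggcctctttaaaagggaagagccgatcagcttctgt
Hist1h3c, chr13:23745522-23745771, minus strand: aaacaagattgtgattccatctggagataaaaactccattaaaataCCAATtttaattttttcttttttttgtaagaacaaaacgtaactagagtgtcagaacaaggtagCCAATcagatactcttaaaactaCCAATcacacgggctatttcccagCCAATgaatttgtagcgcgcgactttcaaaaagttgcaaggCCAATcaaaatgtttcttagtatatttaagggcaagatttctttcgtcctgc
Hist1h3h, chr13:21717378-21717627, plus strand: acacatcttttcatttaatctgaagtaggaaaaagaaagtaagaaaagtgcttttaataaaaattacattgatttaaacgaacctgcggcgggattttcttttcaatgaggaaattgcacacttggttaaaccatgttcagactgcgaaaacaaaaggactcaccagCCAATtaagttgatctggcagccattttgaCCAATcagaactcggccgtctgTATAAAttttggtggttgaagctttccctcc
The Hist1h2bj window is, read from the other strand, also nearly the whole window of Hist1h2ag. Of the 63 windows of members, 82.5% held CCAAT, against 33.8% of all 32851 windows, and 46.0% held TATAAA, against 12.4%. The octamer was in 7 of 17 H2B windows and 7 of 18 H2A windows, in 0 windows of the other types and in 1.60% of all windows. The H1 box was in 5 of 6 H1 windows and in 6.25% of all windows. Windows of paired genes overlap and were counted under both genes.
Among measured members with a window, the median log2 ratio was 1.88 for 24 genes with TATAAA and 1.72 for 26 genes without it. It was 1.65 for 10 genes with the octamer and 1.87 for 40 genes without it. For CCAAT it was 1.91 in 41 genes with it and 1.44 in 9 genes without it. For the H1 box it was 1.23 in 6 genes with it, of which 4 are H1 genes, and 1.92 in 44 genes without it. These differences were not tested.

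The members were then set out by the length of their annotated transcript, in classes chosen after seeing the data. Some cluster genes are known to make, beside the stem-loop form, longer polyadenylated mRNAs. Of 36 measured members with a longest transcript under 700 bases, 32 were at least 2-fold higher in T29I, with a median log2 ratio of 2.08. Of 10 measured members with a transcript of at least 1000 bases, 6 were, with a median of 1.28. The order turned round after the length and GC adjustment, with a median of 0.69 for the short members and 1.63 for the long ones. The summed level of the short members was 530.1 TPM in T29I and 72.9 TPM in WT, and that of the long members 91.8 TPM in T29I and 49.7 TPM in WT. All 3 genes whose ratio interval lay below 1, Hist1h2bq, Hist2h2be and Hist2h3c1, were among the 18 long members of the 70, but had means under 1 TPM. Hist1h2bq and Hist2h3c1 share their coding sequence exactly with another member, so their reads cannot be told apart by it. Members whose annotated transcript ends under 100 bases after the stem-loop had a median log2 ratio of 2.18 (20 measured). Those with at least 300 annotated bases after it had a median of 1.38 (12 measured). This order turned round too, with adjusted medians of 0.73 and 1.72. The highest log2 ratios among the members of at least 1000 bases were those of Hist1h4d, described above, and Hist1h3f. The latter was at 4.64 TPM in T29I and listed at 0 in WT. The difference between these length groups of members was not tested.

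**Figure D4:**
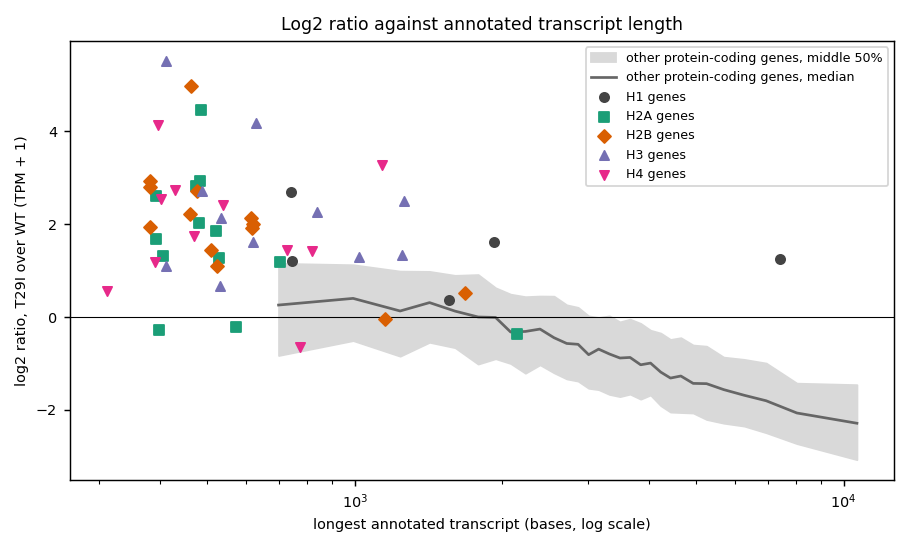
Log2 ratio of T29I over WT on the log2(TPM + 1) scale against the longest annotated transcript in bases on a log axis, for measured cluster histone genes (coloured symbols by type) and for other measured protein-coding genes (grey line, median; grey band, middle 50%, in bins of equal gene number). Most members are shorter than 699 bases, the median length of the first bin, and lie above its median log2 ratio of 0.26, and the line reaches -2.29 in the longest bin.

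Transcript length and GC content moved with the ratio over the whole transcriptome, so members are set beside genes like them. Other measured protein-coding genes with a transcript under 700 bases were 202, of which 26.2% were at least 2-fold higher in T29I, with a median log2 ratio of 0.088. Of these, 68 genes with a GC content of at least 55% had a median of 0.54, and 38.2% were at least 2-fold higher. The 34 measured members of that same class had a median of 2.14, and 88.2% were at least 2-fold higher in T29I. Among other protein-coding genes of at least 1000 bases the median was -0.86, beside 1.28 for the members of that length. The adjusted scale gave those 68 short, GC-rich genes a median of -0.67, below the 0.040 of all measured genes. Members ranged from 39.8% to 70.5% in GC content, with a median of 58.1%.  The part of length and GC content in the histone values was not tested beyond these figures.

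Copies that share sequence limit what can be said of single genes. Of 65 members with an annotated coding sequence, 10 shared theirs exactly with another member, in 5 pairs. Hist2h2aa1 was listed at 0 in both libraries while Hist2h2aa2, its identical partner, held all reads of the pair. The identical Hist1h4m and Hist1h4n together had 51 reads in T29I and 3 in WT. Hist1h2ao and Hist1h2ap together had 46 reads in T29I and 2 in WT. The pair Hist2h3c1 and Hist2h3c2 had 13 reads in T29I, all on Hist2h3c2, and 12 reads in WT, of which 11 were on Hist2h3c1. As a pair, these copies thus had nearly equal reads in both libraries. The pair Hist1h2bq and Hist1h2br had 1 read in T29I and 13 in WT. Members with at least 50% of 50-base words of their own, whose reads are least likely to be shared, had a median log2 ratio of 1.54, with 20 of 24 measured genes at least 2-fold higher in T29I. Their summed level was 308 TPM in T29I and 85.7 TPM in WT.

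The replacement histones, which are made outside S phase as well and from polyadenylated mRNAs with introns in most cases, were nearly level in sum. The 19 listed genes summed to 3519 TPM in T29I and 3516 TPM in WT. Of 11 measured genes, H1fx alone was over 2-fold higher in T29I and H2afy2 alone over 2-fold lower, and the median log2 ratio was 0.18 beside -0.84 for all measured genes. H1fx, a linker histone gene, was at 345 TPM in T29I and 37.4 TPM in WT, although its length and GC adjusted log2 ratio was -0.095. H2afy2, which encodes a macroH2A, was at 10.1 TPM in T29I and 26.8 TPM in WT, and H2afy, the other macroH2A gene, at 41.5 TPM in T29I and 65.8 TPM in WT. Both macroH2A genes were thus lower in T29I as deposited, but relative to the median of all genes H2afy had a log2 ratio of 0.24 and H2afy2 of -0.43.
H2afz, which encodes H2A.Z and was the most abundant of the list, was at 1298 TPM in T29I and 1700.2 TPM in WT. H2afv, the second H2A.Z gene, was at 211 TPM in T29I and 129 TPM in WT. Of the genes of H3.3, H3f3b was at 584 TPM in T29I and 485 TPM in WT and H3f3a at 278 TPM in T29I and 428 TPM in WT, and relative to the median of all genes both log2 ratios were positive, at 1.16 and 0.27. H2afx, whose protein is phosphorylated at DNA breaks, was at 461 TPM in T29I and 406 TPM in WT. Cenpa, the H3 form of centromeres, was at 172 TPM in T29I and 130.2 TPM in WT. H2afj was at 86.8 TPM in T29I and 68.6 TPM in WT, and H1f0, a linker histone of non-dividing cells, at 31.0 TPM in T29I and 38.8 TPM in WT. These 8 genes other than the macroH2A genes and H1fx all differed by less than 2-fold. The other 8 listed genes, among them H1foo, Hils1 and H3f3c, were at 0 in both libraries.

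Genes for the transcription and 3′ processing of histone mRNAs had mostly lower values in T29I as deposited. Of 31 measured genes, 20 were over 2-fold lower in T29I, against 45.7% of all measured genes, and 0 over 2-fold higher, against 9.97%. Relative to the median of all genes, 11 were over 2-fold lower and 6 higher, against 22.2% and 26%, and the deposited median log2 ratio was -1.58, or -0.11 after the length and GC adjustment. Slbp, the stem-loop binding protein, was at 19.5 TPM in T29I and 60.1 TPM in WT. Npat, the cyclin E target that switches on histone transcription, was at 6.15 TPM in T29I and 39.5 TPM in WT. Casp8ap2, which encodes FLASH of the histone locus body, was at 6.83 TPM in T29I and 42.0 TPM in WT. All 3 were lower in T29I by at least 3-fold as deposited, while their adjusted log2 ratios were -0.31, -0.28 and -0.11.
The U7-specific genes Lsm10 and Lsm11 were among the genes with higher values in T29I, with Lsm10 at 69.7 TPM in T29I and 37.2 TPM in WT and Lsm11 at 9.55 TPM in T29I and 5.79 TPM in WT, both under 2-fold. Zfp473, a further U7-associated factor, was at 3.18 TPM in T29I and 12.1 TPM in WT. Eri1, the exonuclease that trims and degrades histone mRNA, was at 13.3 TPM in T29I and 35.5 TPM in WT. After the length and GC adjustment the log2 ratios of Zfp473 and Eri1 were positive, at 0.90 and 0.54. Of the cleavage factors, Cpsf2 was at 5.70 TPM in T29I and 66.1 TPM in WT, Cpsf3, the endonuclease, at 59.0 TPM in T29I and 77.5 TPM in WT, and Sympk at 64.8 TPM in T29I and 50.8 TPM in WT. Cpsf2 thus differed far more than its partners as deposited. Adjusted log2 ratios were -1.32 for Cpsf2, 0.41 for Cpsf3 and 1.11 for Sympk. The transcription factor genes Hinfp, which acts on H4 promoters, and Pou2f1, which binds the octamer, were at 1.57 and 0.611 TPM in T29I and at 14.3 and 27.8 TPM in WT. Their log2 ratios were -2.57 and -4.16 as deposited and -0.89 and -0.85 after adjustment. The most abundant members of the list were the Sm genes Snrpb, at 756 TPM in T29I and 415 TPM in WT, Snrpf, at 445 TPM in T29I and 442 TPM in WT, and Snrpe, at 345 TPM in T29I and 288 TPM in WT.

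**Figure D5:**
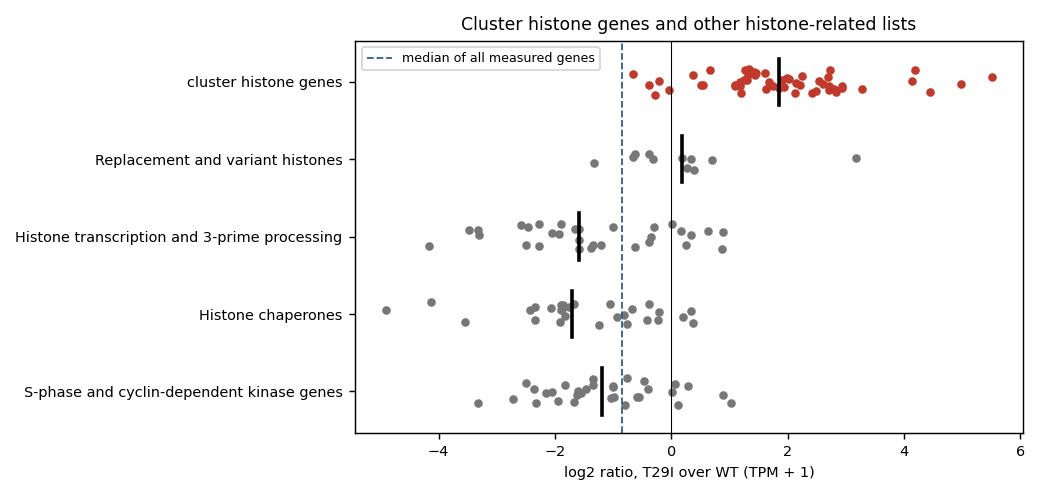
Log2 ratio of T29I over WT on the log2(TPM + 1) scale for the measured genes of 5 lists, 1 point per gene, with black bars at the list medians and a dashed line at -0.84, the median of all measured genes. The cluster histone genes have a median of 1.86, and the replacement histones 0.18, while the processing, chaperone and S-phase lists have medians of -1.58, -1.71 and -1.18.

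Histone chaperones carry new histones to DNA. Of 28 measured chaperone genes, 17 were over 2-fold lower in T29I, against the 45.7% of all measured genes, and 0 over 2-fold higher, against 9.97%. Relative to the median of all genes, 8 were over 2-fold lower and 3 higher, against 22.2% and 26% of all measured genes. The deposited median log2 ratio was -1.71, or -0.14 after adjustment. Nasp, a chaperone of H3 and H4 and of linker histones, was at 21.8 TPM in T29I and 397 TPM in WT, with an adjusted log2 ratio of -2.48. Supt16, a subunit of the FACT complex, was at 10.9 TPM in T29I and 356 TPM in WT, with an adjusted log2 ratio of -3.27. Chaf1b and Asf1b, which act in deposition behind the replication fork, were at 65.0 and 49.7 TPM in T29I and at 51.4 and 42.8 TPM in WT. Chaf1a and Asf1a went the other way as deposited, at 59.7 and 33.6 TPM in T29I and at 125 and 45.0 TPM in WT. After adjustment the log2 ratios of all these genes were positive, from 0.42 for Asf1b to 1.17 for Chaf1b. The most abundant chaperone genes were Npm1, at 2641 TPM in T29I and 4199 TPM in WT, and Set, at 350.2 TPM in T29I and 1304 TPM in WT.
Of 32 measured genes of S phase and its kinases, 18 were over 2-fold lower in T29I, against the 45.7% of all measured genes. In the other direction 1 was over 2-fold higher, against 9.97%. Relative to the median of all genes, 8 were over 2-fold lower and 4 higher, against 22.2% and 26% of all measured genes. The deposited median log2 ratio was -1.18, or -0.11 after adjustment. The exception was Tk1, thymidine kinase, at 83.1 TPM in T29I and 40.1 TPM in WT. Ccne1, which encodes cyclin E1, was at 305 TPM in T29I and 303 TPM in WT, and Mcm5, of the replicative helicase, at 457 TPM in T29I and 421 TPM in WT. Pcna, the sliding clamp, was at 231 TPM in T29I and 466 TPM in WT, and Mcm3, also of the helicase, at 283 TPM in T29I and 414 TPM in WT. Among the genes over 2-fold lower, Mcm4 was at 59.6 TPM in T29I and 310 TPM in WT and Rfc1 at 8.67 TPM in T29I and 95.4 TPM in WT. Their adjusted log2 ratios were -0.98 and -1.70. The share of cells in S phase was not measured.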

How the data were processed

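The authors deposited 1 table of TPM values per gene, with a column for each of 2 libraries, which the label descriptions name. Isogen was used for extraction and TruSeq Stranded Total RNA with Ribo-Zero for the libraries, per the labels' protocols. The aligner, the counting tool, the build and how multiply mapping reads were treated: not given in the sources used here. Values were analysed with Python 3.11.15, pandas 2.3.3, numpy 2.4.6 and scipy 1.17.1.

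The log2 ratio was T29I over WT on the log2(TPM + 1) scale, where the change of a low gene comes out too small, and 2-fold calls were made where the mean reached 1 TPM. No test was run, because each group has 1 library. Positions, exon lengths and GC content came from GENCODE M21 (GRCm38) by gene ID for 68 members. Hist1h2bh and Hist1h2bm were matched by symbol, for position and length only. TPM times merged exon length, divided by the value of 1 read, was whole within 0.05 for 79.9% of T29I and 81.0% of WT values, against 10% by chance. These estimated reads gave exact 95% Poisson intervals for levels and exact binomial intervals for ratios, which cover counting error only. Reads of PCR-amplified libraries are not independent molecules. The adjustment took residuals of a quadratic fit on length and GC content over 9100 protein-coding genes. It was checked on simulated data, which does not show how well it fits real short, GC-rich genes. The 68 such genes outside the members had an adjusted median of -0.67.

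Members and lists were chosen with earlier results of these data known. Named genes were, per type, the 5 most abundant members and those of highest and lowest ratio, members at 0, measured Hist2 and Hist3 members, the measured replacement histones, and the abundant or 2-fold members of the other lists. Members with a ratio interval below 1 and some further list genes were named after their values were seen, as were the classes by length, stem-loop distance and shared words.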

Additional observations from a re-analysis of the deposited data

How the results depend on the processing

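Of 73 alternative values, 44 stayed within the interval or the 1.5-fold range of the reported one, 28 moved further and 1 changed sign. The count of members at least 2-fold higher in T29I, 44 as reported, was 22 with a pseudocount of 5, 22 where the mean had to reach 5 TPM and 22 after the length and GC adjustment, and fewer genes are tested under the stricter filter. The count at least 2-fold lower, 0 as reported, was 1 with a pseudocount of 0.1, 1 with no filter on low values and 7 after adjustment. The median log2 ratio of the measured members was 2.50 and 0.89 with pseudocounts of 0.1 and 5, 2.75 relative to the median of all genes and 0.79 after adjustment. For H2A it was 0.85 with a pseudocount of 5 and turned to -0.16 after adjustment. For H2B it was 2.90 and 0.97 with pseudocounts of 0.1 and 5, 2.89 relative to the median of all genes and 1.25 after adjustment. For H3 it was 2.81, 0.95, 3.04 and 0.63 under the same settings, and for H4 1.09 with a pseudocount of 5. The log2 ratio of the summed TPM, 2.26 over all members, was 3.15 relative to the median of all genes, 2.45 when libraries were rescaled without the most abundant and mitochondrial genes, and 2.50 without Hist1h2bc, an alternative chosen after seeing the data. Relative to the median of all genes it was 2.69 for H1, 2.90 for H2A, 2.89 for H2B, 3.94 for H3 and 3.13 for H4. The cause of the changes with the adjustment was not tested. No paired analysis was possible because each group holds 1 library. Depth limits single genes, since many members had under 10 reads in WT.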
